A study of Danio rerio with 12 samples.

Results

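Skeletal cells from the head and the trunk of zebrafish, 15 days after fertilisation, were compared across osteoblasts and chondrocytes together, using all 12 ATAC-seq libraries of the series, 6 from the head and 6 from the trunk. Location was read from the sample titles, and each location held 3 osteoblast and 3 chondrocyte libraries, so cell type was balanced. The 4 groups were head osteoblasts, head chondrocytes, trunk osteoblasts and trunk chondrocytes, each with 3 libraries titled as biological replicates. All fish were described as wild type and carried 3 transgenes: entpd5a:Gal4FF, UAS:GFP and R2col2a1a:mCherry. In this line regulatory DNA of entpd5a, a gene of bone mineralisation, drives green fluorescence through Gal4, and the R2 element of col2a1a, a collagen gene of cartilage, drives red fluorescence. Osteoblasts were sorted as green cells without red, and chondrocytes as red cells without green, so each population is the one its reporter marks. Head osteoblasts are termed classical and trunk osteoblasts non-classical by the labels, and the trunk chondrocytes came from between spinal segments. Osteoblast and chondrocyte marker genes could not be checked, because positions in these files were not tied to genes here.

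Most of the head skeleton of vertebrates forms from cranial neural crest, a population that leaves the edge of the neural plate, whereas the axial skeleton of the trunk forms from mesoderm. Osteoblasts secrete and mineralise bone matrix, and chondrocytes make the collagen-rich matrix of cartilage. In ATAC-seq a transposase inserts sequencing adapters into accessible DNA, so that promoters and enhancers in use appear as peaks. A summit is the base of highest signal in a peak. In a population of sorted cells, more cells with an accessible region and more accessibility per cell cannot be told apart. The comparison asked which accessible regions followed the position in the body whatever the cell type.

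The lists held 546075 summits in all and differed widely in length. Head lists held between 28911 and 79517 summits, with a median of 56068.5, and the longest trunk list held 64219, with a median of 26066 and the shortest list of all, that of trunk chondrocyte replicate 3, at the low end. The means were 57610.5 in the head and 33402 in the trunk, and an exact two-sided permutation of location within cell type gave p = 0.1. That p does not show the lists to be balanced, and in these libraries trunk lists were shorter on average. Each list was therefore cut to as many of its strongest summits as that shortest list holds. The score of the last summit kept was 15.6 to 172 in head libraries, with a median of 56.2, and 1.31 to 74.5 in trunk libraries, with a median of 14.7. The part of list length in the results below was not tested beyond the alternatives given at the end. Summits within 250 bp of one another were chained, which gave 19415 regions whose median width was 32 bp. A region counted as held by a library when one of its summits after the cut lay in it. Absence means that no summit reached that part of the list and not that the chromatin was closed. Positions are those of GRCz11.

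Few regions followed location alone. All 12 libraries held 2896 regions (14.9%), and at least 1 library of each location held 11761 (60.6%). Head libraries alone held 3001 regions (15.5%) and trunk libraries alone 4653 (24.0%), of which 1634 and 3138 were seen in a single library. Counting regions held by at least 3 libraries of one location and none of the other, the numbers were 603 for the head and 603 for the trunk. Only 10 regions were held by all 6 head libraries and no trunk library, 0.0515% of all regions. Another 21 were held by all 6 trunk libraries and no head library, 0.108% of all regions. Of the 1634 regions held by exactly 6 libraries, the head-only regions made up 0.612% and the trunk-only regions 1.29%. Allowing 1 library to miss and 1 to intrude gave 84 regions (0.433%) held by at least 5 head and at most 1 trunk library, and 101 (0.52%) held by at least 5 trunk and at most 1 head library.

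**Figure D1:**
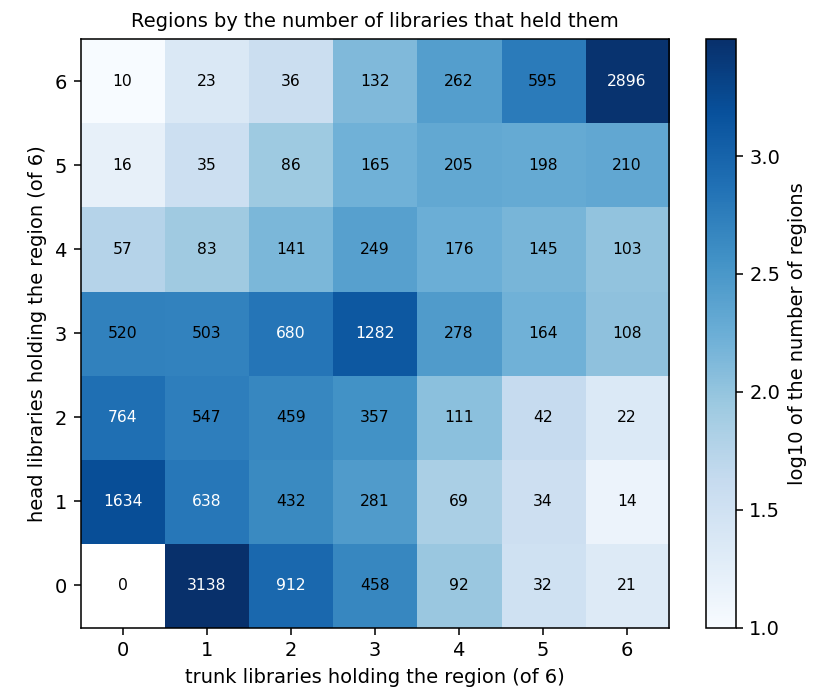
Number of regions by how many of the 6 head libraries (vertical axis) and of the 6 trunk libraries (horizontal axis) held them, at equal list length, with colour giving the log10 of the number. The 10 head-only regions stand in the top left corner, the 21 trunk-only regions in the bottom right corner and the 2896 regions of all libraries in the top right corner.

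The 31 regions split 6 against 0 were ordered by mean rank over the 6 libraries that held them, rank 1 being the strongest summit of a library, and numbered H1 to H10 and T1 to T21. A rank was turned into a rank strength, the log2 of the cut list length plus 1, divided by the rank, and set to 0 where the library did not hold the region. Differences are head minus trunk on that scale, averaged over the 2 cell types and fitted with limma across all 12329 regions held by at least 3 libraries. Because the split itself fixed the direction of these 31 regions, their fitted values describe size and are no further evidence of it. Head-only regions lay on 8 chromosomes and trunk-only regions on 13. Head-only regions lay low in their lists, with a median mean rank of 5803.5, and trunk-only regions somewhat higher, with a median of 4172. The 2896 regions of all 12 libraries had a median mean rank of 2140.5.

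The strongest trunk-only region was T1, on chromosome 23 from 36052770 to 36052840. Its ranks were 2019, 1522 and 1887 in trunk osteoblasts and 1177, 1997 and 6092 in trunk chondrocytes, and no head library held it. It thus stood within the strongest 2019 summits of 5 trunk libraries, and lower in trunk chondrocyte replicate 3. The difference was -2.01 ± 0.31 (SE; limma, Benjamini-Hochberg adjusted p = 0.0048). By cell type it was -2.23 in osteoblasts (limma adjusted p = 0.0083) and -1.79 in chondrocytes (limma adjusted p = 0.026), a direction that the split fixed in each. In the uncut lists the only head summit there was at rank 70330 of head osteoblast replicate 2. The other 20 trunk-only regions had summits in 4 to 6 of the uncut head lists.

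T2 also lay on chromosome 23, from 1797625 to 1797708, with ranks of 4301, 2484 and 3962 in trunk osteoblasts and 702, 1024 and 4489 in trunk chondrocytes. Its difference was -1.89 ± 0.35 (SE; limma adjusted p = 0.011), and 5 uncut head lists held a summit there. T6, on chromosome 5 from 70456707 to 70456853, had the smallest adjusted p of the 21. Its ranks were 3735, 3511 and 4425 in trunk osteoblasts and 2777, 4561 and 3205 in trunk chondrocytes, a difference of -1.20 ± 0.18 (SE; limma adjusted p = 0.0033). T7, on chromosome 19 from 47138704 to 47138793, ranked 3042, 2323 and 5130 in trunk osteoblasts and 2689, 5640 and 3458 in trunk chondrocytes, with a difference of -1.26 ± 0.23 (limma adjusted p = 0.0098). T1, T6, T7 and T14 (chromosome 4, 14047128 to 14047211) passed the adjusted threshold of 0.05 in limma in osteoblasts alone and in chondrocytes alone. The split fixed the direction in each cell type and the head libraries add no spread, so this too describes size.

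Other trunk-only regions leaned to one cell type while being held in both. T13, on chromosome 12 from 37324275 to 37324363, ranked 2179, 2441 and 2439 in trunk osteoblasts and 4420, 7536 and 7575 in trunk chondrocytes. T17, also on chromosome 12, from 816693 to 816728, showed the opposite order, with 7144, 6029 and 7496 in trunk osteoblasts and 2131, 2932 and 4016 in trunk chondrocytes. No interaction of location with cell type was called among the 31 regions by limma, with 6 at an unadjusted p below 0.05. A pair of neighbours on chromosome 2 was trunk-only: T4, from 35671452 to 35671524, and T8, from 35801039 to 35801107. T4 ranked 3081, 3167 and 1350 in trunk osteoblasts and 2764, 2891 and 8340 in trunk chondrocytes, and T8 ranked 2406, 2075 and 5353 in trunk osteoblasts and 5172, 4778 and 2620 in trunk chondrocytes. In all, 20 of the 21 trunk-only regions were called higher in the trunk by limma, with adjusted p between 0.0033 and 0.0993 over the 21. The one not called, T21 on chromosome 14, lay near the end of its lists.

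Among the head-only regions, H3 had the smallest adjusted p. It lay on chromosome 20 from 10111152 to 10111195, with ranks of 3039, 2537 and 2808 in head osteoblasts and 6341, 7642 and 5704 in head chondrocytes. It stood higher in every osteoblast library than in any chondrocyte library, and 1 uncut trunk list held it. The difference was 0.98 ± 0.15 (SE; limma adjusted p = 0.0051), at 1.59 in osteoblasts (adjusted p = 0.0012) and 0.37 in chondrocytes (adjusted p = 0.44). H2, on chromosome 19 from 1841037 to 1841066, leaned the other way, with ranks of 6119, 6434 and 5063 in head osteoblasts and 2947, 3920 and 1866 in head chondrocytes. Its difference was 1.06 ± 0.19 (limma adjusted p = 0.0095). H4, on chromosome 9 from 6752097 to 6752358, was even across the cell types, at 5215, 5014 and 5271 in head osteoblasts and 5803, 5664 and 4584 in head chondrocytes, with a difference of 0.68 ± 0.13 (limma adjusted p = 0.013).

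H1, on chromosome 10 from 5450703 to 5450811, had the best mean rank of the head-only regions but was uneven, at 4530, 6376 and 1822 in head osteoblasts and 5183, 4938 and 1780 in head chondrocytes. Its difference of 1.20 ± 0.31 (limma adjusted p = 0.039) lost its call in 9 of the 12 fits that left out 1 library. Of the 10 head-only regions, 6 were called higher in the head by limma, with adjusted p between 0.0051 and 0.19 over the 10. H7 to H10 were not called, and all 4 ranked between 4628 and 8288 in the head libraries.

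The 6 against 0 split did not carry over to the uncut lists. Every head-only region had a summit in at least 1 uncut trunk list, with a median of 4, and every trunk-only region in at least 1 uncut head list, with a median of 5. For 10 of the 21 trunk-only regions all 6 uncut head lists held a summit. The uncut list of trunk chondrocyte replicate 3 is the cut list itself, so a head-only region can reach at most 5 trunk lists. When limma was run on ranks in the uncut lists, with list length added as a covariate, 5 of the 6 called head-only and all 20 called trunk-only regions were still called. With lists cut to the strongest 4000 summits, 2 of the 6 and 14 of the 20 could still be fitted, and limma called 0 of either, with 1 and 12 at an unadjusted p below 0.05.

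Leaving out 1 library at a time, 3 of the 6 called head-only regions (H2, H3 and H4) and 15 of the 20 called trunk-only regions, T1 to T10 among them, stayed called by limma in all 12 fits. The labels report file loss for 3 libraries, replicate 1 of head osteoblasts, of trunk osteoblasts and of trunk chondrocytes. Leaving these 3 out together, limma called 0 of the 6 head-only regions (adjusted p between 0.063 and 0.20) and 3 of the 20 trunk-only regions (T3, T9 and T10), while all 6 and all 20 had an unadjusted p below 0.05. T1 then had a difference of -1.79 (limma adjusted p = 0.058) and H3 one of 1.01 (limma adjusted p = 0.063). With libraries left out these regions still split all against none, and the location that lacked them added no spread. A kept call or a low unadjusted p here describes size and evenness of rank and is no further evidence of a location difference.

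**Figure D2:**
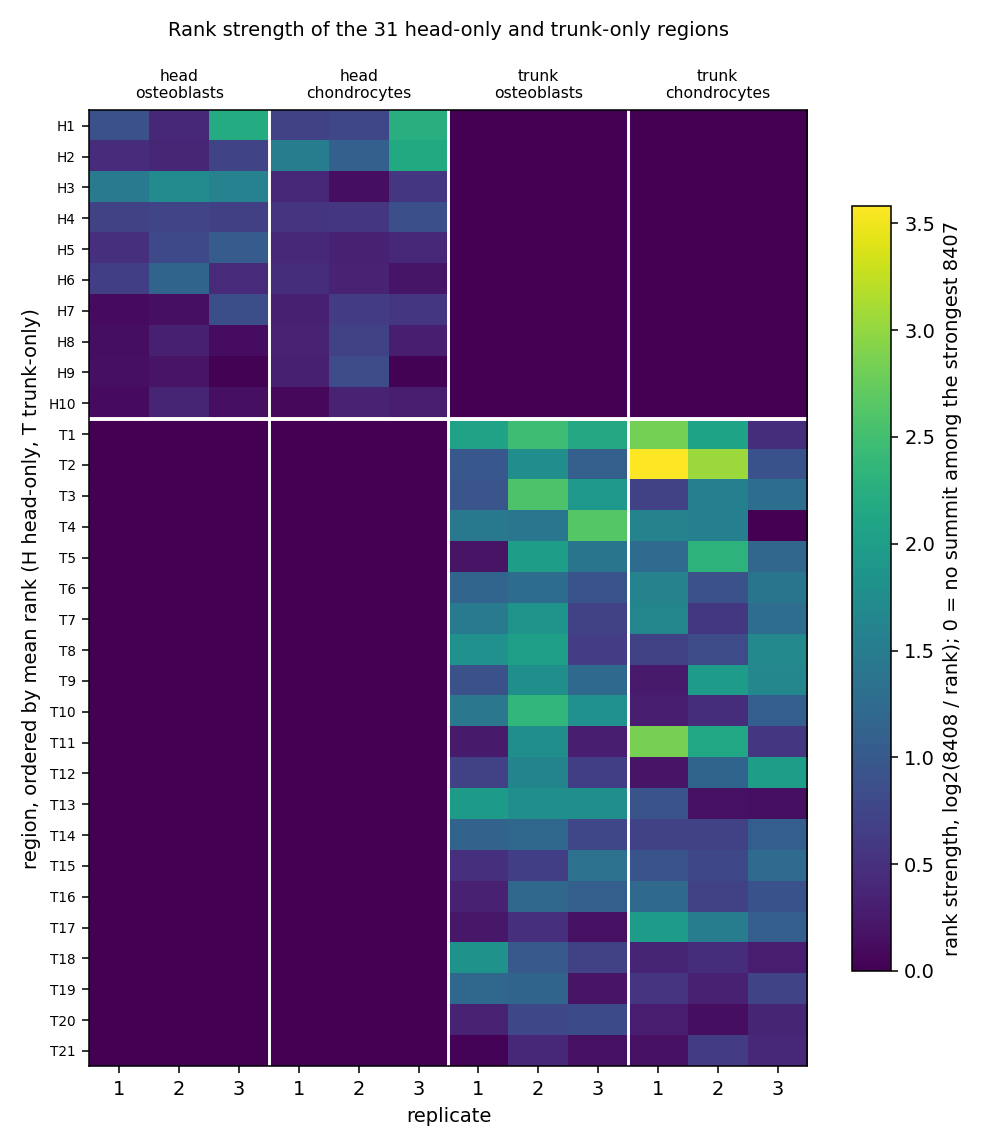
Rank strength of the 10 head-only (H1 to H10) and 21 trunk-only (T1 to T21) regions in each of the 12 libraries, in columns by group and replicate, with brighter colour for a stronger rank and the darkest for 0. Bright cells gather in the upper trunk-only rows, T1 to T4, while most head-only cells stay dark.

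Across all 12329 regions tested, limma called 281 higher in the head (2.28%) and 273 higher in the trunk (2.21%) at an adjusted p below 0.05, and 2825 (22.9%) had an unadjusted p below 0.05. The counts were unstable: leaving out 1 library gave 79 to 284 head calls and 93 to 456 trunk calls, and leaving out the 3 libraries with file loss gave 4 and 9. With list length as a covariate there were 63 head and 224 trunk calls, of which 60 and 138 were among the calls above, and all 281 and 273 differences kept their sign. The median difference was 0.76 among regions called for the head, -0.94 among those called for the trunk and 0.04 over all tested. Over all regions tested, 34.5% were held by 1 cell type only. Of the 281 head calls, 150 (53.4%) were of this kind, among them 51 held by head osteoblasts alone and 33 by head chondrocytes alone. Of the 273 trunk calls, 94 (34.4%) were, near the share over all regions, among them 23 held by trunk osteoblasts alone and 30 by trunk chondrocytes alone. A difference of the same sign in both cell types was found for 125 head calls (44.5%) and 174 trunk calls (63.7%), beside 40.1% of all regions tested. The location difference averages the 2 cell types, so a call on it favours the same sign in both. The 44.5% and 63.7% beside 40.1% are therefore no evidence of a shared difference. Shares were not tested against each other. Libraries that lack a region enter at 0 and add no spread, so standard errors are small for regions held by 1 group, and such calls are not evidence that both cell types differed.

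A call shared by the cell types was read by a stricter rule, written after these values were seen: called for location and an unadjusted p below 0.05 the same way in osteoblasts and in chondrocytes. This left 56 regions for the head (0.454%) and 76 for the trunk (0.616%). All 56 had a summit in every uncut head list, and 24 of them also in every uncut trunk list. Of the 76, 75 had one in every uncut trunk list and 63 in every uncut head list. Uncut trunk lists are shorter on average, and that of trunk chondrocyte replicate 3 is the cut list itself. The 24 and the 63 therefore cannot be compared, and the share over all regions tested is not given beside them. The rule picks regions that libraries of the called location rank high, so the 56 and the 75 were nearly fixed by it. Osteoblasts alone gave 366 head (2.97%) and 274 trunk calls (2.22%) by limma, and chondrocytes alone 387 (3.14%) and 321 (2.6%). Only 6 regions were called higher in the head in each cell type, 12 higher in the trunk in each, and 2 in opposite directions. Every head value lay above every trunk value in 44 of the regions tested (0.357%), and every trunk value above every head value in 43 (0.349%). Of these, 34 and 38 were among the limma calls.

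The interaction term called 82 regions (0.665%) in which the signed value of head minus trunk was higher in osteoblasts. It called 85 (0.689%) in which that value was higher in chondrocytes, and 1990 regions (16.1%) had an unadjusted p below 0.05. The sign does not tell in which cell type the locations lay further apart. Of these calls, 117 were held by 1 cell type only. There the other cell type entered at 0, so such calls cannot tell whether the cell types differed.

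The regions with the smallest p in each direction were named after their values were seen. For the head this was chromosome 1, 24076178 to 24076189. It ranked 654, 881 and 450 in head osteoblasts and 1580, 2244 and 2319 in head chondrocytes, against 4329, 2816 and 3307 in trunk osteoblasts, and no trunk chondrocyte library held it. All 6 head libraries stood above all 6 trunk libraries. The difference was 2.24 ± 0.24 (SE; limma adjusted p = 0.00064), at 2.43 in osteoblasts and 2.06 in chondrocytes. It was called in all 24 alternatives run, but when scored as held or not it had no spread in any group, and that p cannot be read. Next came chromosome 22, 15624397 to 15624488, with ranks of 2047, 1837 and 940 in head osteoblasts and 2183, 1711 and 1550 in head chondrocytes, against 6651, 5464 and 5982 in trunk osteoblasts and 8109 in trunk chondrocyte replicate 2 alone. Here too the locations did not overlap, with a difference of 2.10 ± 0.23 (limma adjusted p = 0.00069).

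For the trunk the smallest p belonged to chromosome 15, 29242116 to 29242178. Head osteoblasts ranked it at 1067, 691 and 1193 and head chondrocyte replicate 1 at 7364, with no summit in the other head chondrocyte libraries. Trunk osteoblasts ranked it at 49, 65 and 89 and trunk chondrocytes at 2266, 2704 and 3229. The trunk was thus above the head in each cell type, although head osteoblasts stood above trunk chondrocytes. The difference was -2.72 ± 0.26 (SE; limma adjusted p = 0.00029), larger in size in osteoblasts (-3.87) than in chondrocytes (-1.57). The next, chromosome 11, 18764090 to 18764211, separated all 12 libraries by location. Only head osteoblast replicate 2, at 7495, and the head chondrocytes, at 7646, 6381 and 6954, held it in the head, against 1246, 3203 and 3008 in trunk osteoblasts and 805, 1403 and 1289 in trunk chondrocytes. Its difference was -2.22 ± 0.26 (limma adjusted p = 0.0011).

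A few regions of all 12 libraries shifted in rank with location, so that location changed their place in the list and not their presence: 28 of the head calls and 27 of the trunk calls were of this kind. That is 0.967% and 0.932% of the 2896 regions of all libraries, below the 2.28% and 2.21% over all regions tested. The head region with the smallest p among them was chromosome 1, 13402397 to 13402569, with ranks of 2981, 2890 and 1454 in head osteoblasts and 426, 266 and 457 in head chondrocytes, against 4935, 7173 and 7739 in trunk osteoblasts and 2607, 3713 and 2156 in trunk chondrocytes. Its difference was 2.18 ± 0.28 (SE; limma adjusted p = 0.0015). The trunk region with the smallest p among them was chromosome 23, 31107483 to 31107606, with ranks of 4485, 2257 and 6749 in head osteoblasts and 4348, 5482 and 6935 in head chondrocytes, against 757, 694 and 1055 in trunk osteoblasts and 1442, 2362 and 3262 in trunk chondrocytes. Its difference was -1.81 ± 0.30 (limma adjusted p = 0.0066), and -1.59 without the 3 libraries with file loss, where it was not called (limma adjusted p = 0.099).

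**Figure D3:**
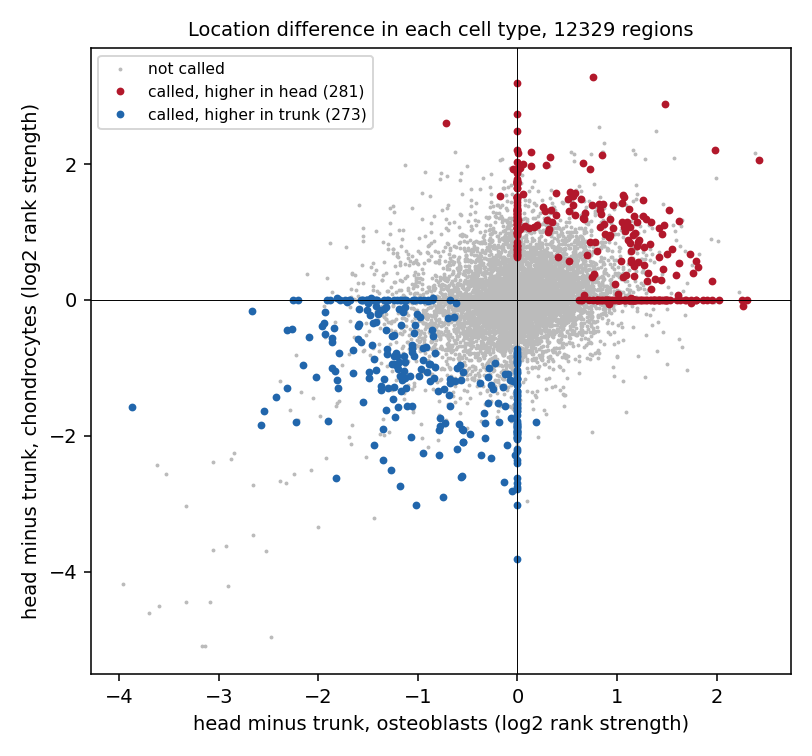
Head minus trunk difference in rank strength in osteoblasts (horizontal axis) and chondrocytes (vertical axis) for the 12329 regions tested, with the 281 called higher in head in red, the 273 called higher in trunk in blue and the others in grey. Many calls lie on an axis, where 1 cell type shows no difference, and a set of grey points at the lower left has large differences that limma did not call.

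The largest differences of all were not calls. A set of 28 regions ranked within the top 100 in at least 3 libraries and beyond 1000, or not at all, in at least 3 others. At chromosome 10, 16800753 to 16800767, for example, ranks were 3, 1550 and 1668 in head osteoblasts, 7160, 559 and 116 in head chondrocytes, 3, 3 and 1259 in trunk osteoblasts and 3, 975 and 4 in trunk chondrocytes. The difference was -4.12 ± 2.52 (SE; limma adjusted p = 0.37). In 15 of the 28, this one included, libraries of a single group lay at both ends, within the top 100 and beyond 1000 or absent. The differences of these 15 were -4.16 to -1.52. At the chromosome 10 region the libraries at rank 3 or 4 had the shortest uncut lists, of at most 28911 summits. The uncut lists of the other libraries held at least 46446. In all 15, ranks within the top 100 came from those short-list libraries or from head chondrocyte replicate 3, whose list held 46446. The short-list libraries were of the trunk except head osteoblast replicate 1. Among them were all the libraries with file loss, replicate 1 of head osteoblasts, of trunk osteoblasts and of trunk chondrocytes. The part of list length or of file loss in these differences was not tested. In another 12 every chondrocyte library ranked the region above every osteoblast library, with location differences of -1.14 to 0.74. Of the 28, limma called 1, the chromosome 15 region above.

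By chromosome, the share of tested regions called higher in the trunk was highest on chromosome 23, at 22 of 412 (5.34%), followed by chromosome 14 at 3.38%, with a median of 2.14% over the 25 chromosomes. The share called higher in the head was lowest on chromosome 23, at 4 of 412 (0.971%), and highest on chromosome 13, at 3.23%. The chromosome was picked out after the values were seen. It had the highest trunk share in 17 of the 24 alternatives, among them 11 of the 12 fits that left out 1 library. Those fits share most of their libraries. By share it stood 2nd with 4000 summits and without trunk chondrocyte replicate 3. It stood 3rd with 20380 summits and on full lists (1.91%, beside 1.55% of all regions tested). With list length as a covariate on equal lists it stood 4th (2.91%, beside 1.82%). Scored as held or not, where some p cannot be read, it stood 12th (4.61%, beside 4.51%). Without the 3 libraries with file loss, when 0.0845% of all regions tested were called for the trunk, none on chromosome 23 was.

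Windows of 100 kb with at least 1 region per library on average were tested on the log2 of the number of regions plus 0.5. Limma called 49 of 3503 windows higher in the head (1.4%) and 67 higher in the trunk (1.91%), but 20 and 15 of these had the same number in all 3 libraries of every group, and a p without spread cannot be read. The windows named were therefore taken from a second fit of the 3018 windows with spread in some group, a choice made after the first was seen, which called 26 for the head (0.861%) and 44 for the trunk (1.46%). Window counts rest on the same regions as the region fit and are not independent of it.

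The trunk window with the smallest p ran from 36000001 to 36100000 on chromosome 23 and contained T1. It held 1, 1 and 1 regions in head osteoblasts and 1, 1 and 1 in head chondrocytes, against 3, 3 and 2 in trunk osteoblasts and 3, 3 and 3 in trunk chondrocytes. The difference was -1.14 ± 0.13 on the log2 scale (SE; limma adjusted p = 0.0013), and the window was called in all 24 alternatives run. Without trunk osteoblast replicate 3, however, no group had spread, and that p cannot be read. The region held by all head libraries, 36003447 to 36003474, was held by all trunk libraries too. It ranked 131, 76 and 40 in head osteoblasts and 27, 105 and 83 in head chondrocytes, against 255, 322 and 69 in trunk osteoblasts and 259, 99 and 681 in trunk chondrocytes, with a difference of 1.67 ± 0.56 that was not called (limma adjusted p = 0.099). Besides T1, the window held 36025580 to 36025723 in the trunk chondrocytes alone, at 3417, 2564 and 3940, and a single-library summit in each of 2 further places in trunk osteoblasts.

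The next trunk window, chromosome 2 from 35800001 to 35900000, contained T8. It held 1, 1 and 1 regions in head osteoblasts and 1, 1 and 1 in head chondrocytes, against 3, 3 and 3 in trunk osteoblasts and 2, 3 and 2 in trunk chondrocytes, a difference of -1.06 ± 0.13 (SE; limma adjusted p = 0.0020). The third, chromosome 19 from 26000001 to 26100000, held 1, 1 and 1 and 2, 1 and 1 regions in head osteoblasts and head chondrocytes, against 2, 2 and 2 and 4, 4 and 4 in trunk osteoblasts and trunk chondrocytes (-1.04 ± 0.15, limma adjusted p = 0.0048). Neither was called on full lists, fitted with list length as a covariate, where the differences were -0.02 and -0.46 (limma adjusted p = 0.99 and 0.67).

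The head window with the smallest p was chromosome 19 from 41300001 to 41400000, with 4, 4 and 5 regions in head osteoblasts and 1, 1 and 1 in head chondrocytes, against 1, 2 and 2 in trunk osteoblasts and 0, 0 and 0 in trunk chondrocytes. The difference was 1.39 ± 0.16 (SE; limma adjusted p = 0.0013). Its regions were not shared between the cell types: of the 7, the one held by head chondrocytes was in no osteoblast list. In chromosome 3 from 14800001 to 14900000 the difference of 1.05 ± 0.12 (limma adjusted p = 0.0013) was 1.78 in osteoblasts alone, with 5, 4 and 5 regions in head osteoblasts and 3, 3 and 3 in head chondrocytes, against 1, 1 and 1 in trunk osteoblasts and 3, 2 and 2 in trunk chondrocytes. Chromosome 1 from 24000001 to 24100000 contained the chromosome 1 region described above and a second called region, 24092461 to 24092561. The second ranked 1368, 1739 and 1166 in head osteoblasts and 6196, 4837 and 5987 in head chondrocytes, against 2688 and 5135 in trunk osteoblast replicates 1 and 3 and no trunk chondrocyte library. Its difference was 1.19 ± 0.26 (SE; limma adjusted p = 0.020), and the window held 2, 2 and 2 regions in each head group, against 2, 1 and 2 in trunk osteoblasts and 0, 0 and 0 in trunk chondrocytes. On full lists, fitted with list length as a covariate, these 3 windows had differences of 0.56, 0.24 and 0.47 that were not called, with limma adjusted p between 0.73 and 0.87.

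Similarity between whole libraries was measured as the Jaccard index, the regions held by both libraries of a pair divided by those held by either. Within a cell type, pairs of one location had a mean index of 0.655 and head with trunk pairs 0.577, a difference of 0.0784, which was 0.0386 on uncut lists (exact permutation p = 0.13). On equal lists an exact one-sided permutation of location within cell type gave p = 0.01, the smallest it can give. Head pairs had means of 0.705 in osteoblasts and 0.715 in chondrocytes, and trunk pairs 0.616 and 0.583. Head with trunk pairs had means of 0.576 and 0.578. By these means trunk chondrocytes were hardly more alike among themselves than with head chondrocytes, but the trunk mean included replicate 3, the shortest list. Its pairs with trunk chondrocyte replicates 1 and 2 had 0.524 and 0.527, while replicates 1 and 2 had 0.699 with each other. With head chondrocytes, replicates 1 and 2 had 0.579 to 0.687, the highest for replicate 2 with head chondrocyte replicate 1. Among osteoblasts, trunk replicate 3 had 0.665 with head replicate 2, above its 0.632 and 0.591 with trunk replicates 2 and 1. Each of the other 11 libraries had its highest index within its own location. Trunk osteoblast replicate 3 and trunk chondrocyte replicate 2 had the longest uncut trunk lists, of 64219 and 55274 summits. The part of list length in these pairs was not tested. Between osteoblasts and chondrocytes the location effect was small, at 0.418 for pairs of one location and 0.404 for pairs of different location, a difference of 0.0134 (exact one-sided permutation p = 0.005, the smallest it can give). The mean for head osteoblasts paired with head chondrocytes was 0.427, against 0.381 when they were paired with trunk chondrocytes. Trunk osteoblasts behaved otherwise, with a mean of 0.427 for pairs with head chondrocytes and 0.409 for pairs with trunk chondrocytes, so they were not closer to the chondrocytes of their own location. In all, 7 of the 12 libraries were closer to their own location in the other cell type: the 3 head osteoblast libraries, head chondrocyte replicate 3 and the 3 trunk chondrocyte libraries. The small difference across cell types did not pass 0.05 when any one head osteoblast library was left out, and passed it when any one of the other 9 was. Without head osteoblast replicate 3 it was 0.0046 (exact permutation p = 0.225), and without replicate 1 or 2 the p was 0.075 or 0.14. Without the 3 libraries with file loss, of which head osteoblast replicate 1 is one, it was 0.0105 (exact permutation p = 0.083).

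**Figure D4:**
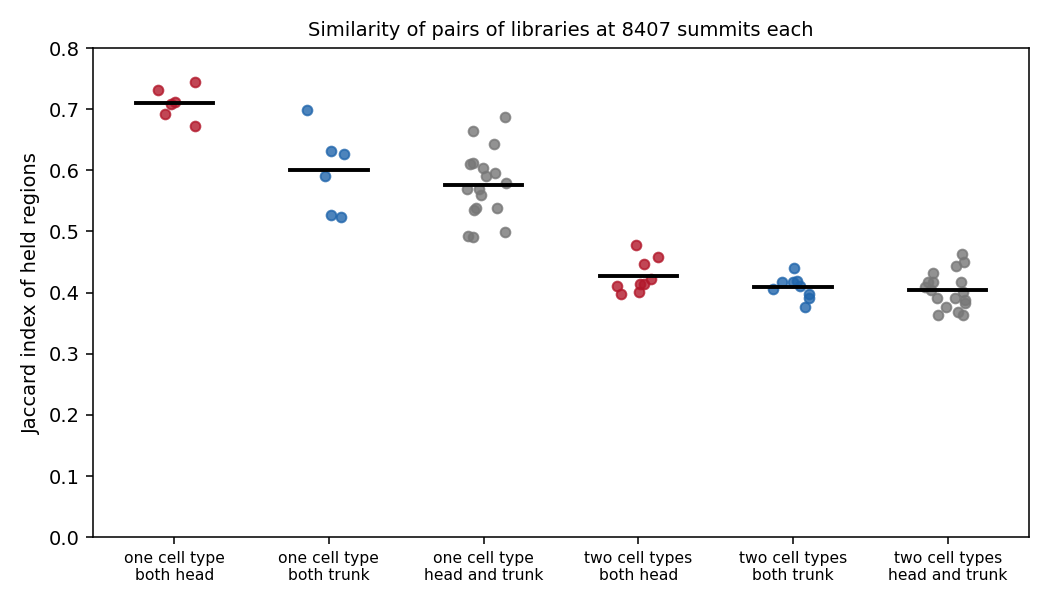
Jaccard index of held regions for all pairs of the 12 libraries, grouped by whether the cell types of the pair were the same or differed and whether it was of head, of trunk or of both, with points for pairs and bars for means. Pairs of the same cell type lie above mixed pairs, and among mixed pairs the 3 location classes overlap.

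Location was also read in libraries that had no part in the choice of regions. Regions that separated head from trunk in 1 cell type, 3 libraries against 0, were looked up in the 6 libraries of the other cell type. The 365 regions of head osteoblasts against trunk osteoblasts were held at 16.7%, 17.5% and 19.7% by head chondrocyte libraries, against 11.2%, 10.1% and 9.32% by trunk chondrocyte libraries. The 388 regions of trunk osteoblasts were held at 33.2%, 31.7% and 29.6% by head chondrocytes, against 43.8%, 42.8% and 34.8% by trunk chondrocytes. The 344 regions of head chondrocytes were held at 25.6%, 28.2% and 33.7% by head osteoblasts, against 21.8%, 25% and 23.8% by trunk osteoblasts. The 269 regions of trunk chondrocytes were held at 17.5%, 16.7% and 14.9% by head osteoblasts, against 32.0%, 31.2% and 33.8% by trunk osteoblasts. In all 4 readings the location that chose the regions was the higher one and the 3 libraries of each location did not overlap. On full lists the trunk osteoblast regions read in chondrocytes turned direction, at 0.242 percentage points (exact permutation p = 1). The differences, head minus trunk, were 7.76, -8.93, 5.62 and -16.0 percentage points. Each gave an exact two-sided permutation p of 0.1, the smallest that 3 against 3 libraries allow, so none can pass 0.05 alone. Any one library of the choosing location in the other cell type lacked between 56.2% and 83.3% of the regions. For comparison, each library held between 8297 and 8406 of all 19415 regions, and so lacked more of them than it held.

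**Figure D5:**
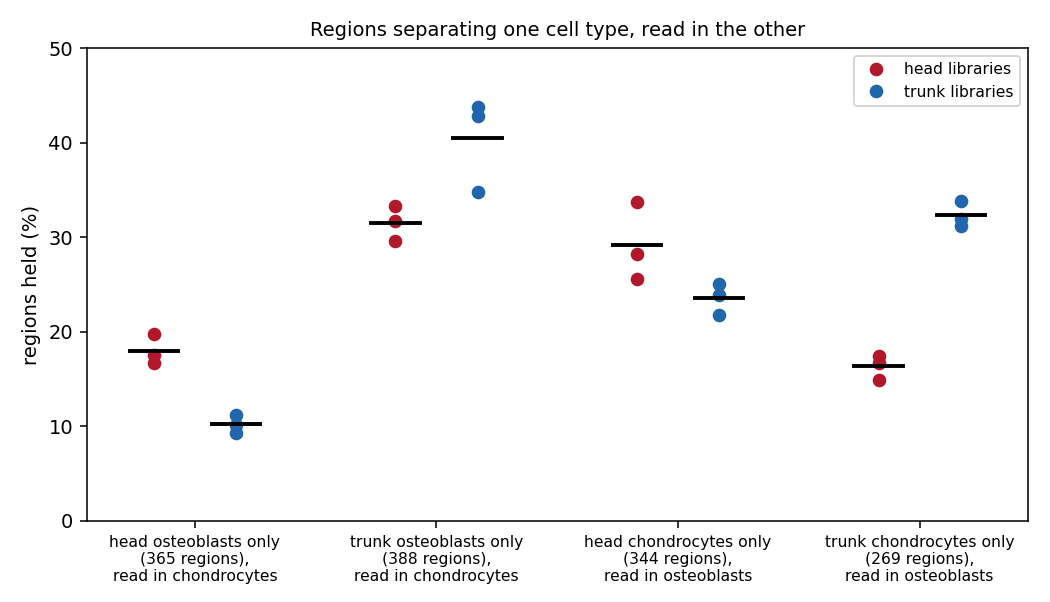
Share of regions held (percent) by each head library (red) and trunk library (blue) of the cell type that was not used to choose the regions, with bars for means. In all 4 sets, at equal list length, the 3 libraries of the location in which the regions were chosen lie above the other 3 (on full lists the trunk osteoblast regions turn to 0.242 points), with the widest gap for the regions of trunk chondrocytes read in osteoblasts.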

How the data were processed

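ATAC-seq was measured in 12 libraries, 3 per group, grouped by sample title. The submitters' processing notes name fastp, Bowtie2, SAMtools, bedtools, deepTools and MACS2 and the danRer11 build (GRCz11), without versions or settings. The authors deposited a separate list of MACS2 summits for each library. The deposited score is on a −log10 scale of either p-value or q-value, which one not being stated, and served only to rank summits within a list. Read counts were not used, so depth is known only as list length (8407 to 79517 summits). Per the labels, transposase amount and time followed cell number. The labels also report file loss for the first replicate of 3 groups (osteoblasts of head and trunk, trunk chondrocytes), which are given from the read-shifting step. Replicate numbers were taken from the titles, since peak names inside most of the lists carry another number. The replicate block, the correlations by replicate number and the libraries named for file loss all rest on the titles.

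Each list was cut to its strongest 8407 summits, summits within 250 bp were chained, and regions held by at least 3 libraries were tested. Rank strength was fitted with limma 3.58.1 (R 4.3.3; trend and robust moderation, 4 group means, 8 residual degrees of freedom), with Benjamini-Hochberg adjustment at 0.05. Windows of 100 kb were fitted likewise on log2(regions + 0.5). Region and window fits on full lists added the log2 of list length as a covariate. Similarity and lookups in the other cell type used exact permutations over libraries. Procedures were tested on simulated data. P-values measure the spread between these libraries. The members, rules and lists were chosen with earlier results of these data known. The naming rule took the 10 regions split 6 against 0 with the lowest mean rank per direction and the 3 windows per direction with the smallest p. Other regions were named after their values were seen. Genes, marker lists, motifs and the entpd5a and col2a1a loci, also planned, are not analysed here, since no sequence or annotation of this build was used. Alternatives tried were list length, chaining distance, file loss, replicate block, filters, scale and leaving out each library.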

Additional observations from a re-analysis of the deposited data

Results flagged for a closer look

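The interaction term, which compares the head minus trunk difference between osteoblasts and chondrocytes, called 167 regions by limma (Benjamini-Hochberg adjusted p below 0.05). In 82 of them (0.665% of regions tested) the signed value of head minus trunk was higher in osteoblasts, and in 85 (0.689%) it was higher in chondrocytes. The higher signed value can be the smaller difference, as where the trunk is higher in chondrocytes alone. Of the 167, 117 (70.1%) were held by 1 cell type only, beside 34.5% of all regions tested, and 36 (21.6%) had opposite signs in the cell types, beside 25.4%. In those 117 every library of the other cell type entered at 0, so the calls cannot tell whether the cell types differed. The cut set that 0, and it is not a measured equality. Without head chondrocyte replicate 2 limma called 0 of 11883 regions tested, with 1543 at an unadjusted p below 0.05.

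Of the regions called in each cell type alone with opposite signs, there were 2. Chromosome 2, 35630340 to 35630466, ranked 4058, 5245 and 4222 in head osteoblasts against 1447, 1571 and 1436 in trunk osteoblasts, and 478, 634 and 1004 in head chondrocytes against 2036, 1133 and 2391 in trunk chondrocytes. Trunk was higher in osteoblasts and head in chondrocytes, without overlap, and the interaction was -2.99 (limma adjusted p = 0.020). It lay on the chromosome that also held T4 and T8, within the same megabase. Chromosome 24, 21346070 to 21346115, was held at 7853 and 7155 by head osteoblast replicates 2 and 3, against 2159, 4213 and 4419 in trunk osteoblasts. Head chondrocytes held it at 4558, 4372 and 3496 and no trunk chondrocyte library did, an interaction of -2.22 (limma adjusted p = 0.021).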

How the results depend on the processing

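Cutting lists to the strongest 4000 summits gave 5 head-only and 4 trunk-only regions, 10 head and 20 trunk calls by limma, 8 interactions, and 21 head and 27 trunk windows. The 20 trunk calls were 0.342% of the regions tested. Full lists gave 71 and 3 regions split 6 against 0, and 351 head calls, 1083 trunk calls and 462 interactions by limma. The trunk calls were 1.55% of the regions tested, beside 2.21% in the main fit. Of 9407 windows tested, limma called 0 for the head and 2 for the trunk. An unadjusted p below 0.05 was found for 588 windows, 344 of them higher in the head. The within-cell-type similarity difference was 0.0386 (exact permutation p = 0.13). The limma fits on full lists also added list length as a covariate, so lists and model changed together. The strongest 20380 summits of the 11 longer lists, chosen after seeing the data, gave 60 and 109 such regions, 1242 head and 1532 trunk calls, 1123 interactions, and 110 head and 129 trunk windows. More regions are tested with longer lists.

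Lookups of head osteoblast regions in chondrocytes gave head minus trunk differences of 11.8, 22.8 and 9.96 points with 4000, full and 20380 summits, and head chondrocyte regions in osteoblasts 11.2, 22.1 and 10.3. Trunk chondrocyte regions in osteoblasts gave -9.97 with 4000 summits, -30.2 with full lists, -17.4 with chaining at 100 bp and -12.6 without the libraries with file loss. Trunk osteoblast regions in chondrocytes turned to 0.242 on full lists, where head lists are longer; the cause was not tested. Leaving out 1 library moved the lookups to 6.19 to 9.87 (head osteoblast regions), -11.8 to -6.94 (trunk osteoblast), 3.34 to 7.41 (head chondrocyte) and -16.5 to -12.5 (trunk chondrocyte).

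Without the 3 libraries with file loss, from 9 libraries, there were 19 head-only regions, a count that fewer libraries let rise. Of 10650 regions tested, limma called 4 for the head, 9 for the trunk and 0 for the interaction. The interaction had an unadjusted p below 0.05 in 1122. The similarity difference across cell types was 0.0105 (exact permutation p = 0.083). File loss as a term gave 153 head calls and 84 interactions. Testing only regions held by at least 6 libraries gave 127 head calls, 162 trunk calls (2.09% of the fewer regions tested) and 16 interactions. Scoring regions as held or not gave 619 head calls, 556 trunk calls (4.51% of regions tested) and 1004 interactions. Regions held by all or none of the libraries of each group have no spread on that scale. Their p cannot be read, so these 3 counts cannot be taken at face value. Of the calls in the main fit, 118 of the 281 for the head and 125 of the 273 for the trunk were among them. Windows with a mean of at least 0.5 gave 87 head and 105 trunk calls. Further alternatives were added after seeing the data: list length as a covariate (63 head calls), regions held in both cell types (103 head and 160 trunk calls, 15 interactions) and windows with spread within groups (26 head and 44 trunk).

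The replicate block gave 148 head and 194 trunk calls and 67 interactions. Deviations of libraries with the same number correlated between -0.302 and 0.378 over all 6 pairs of groups, above 0.1 in 3 of 18 pairs of libraries. With 3 libraries per group, these values cannot tell whether libraries of one number were handled together. The longest lists of the 4 groups correlated at 0.297 to 0.449, above 0.1 in 6 of 6 pairs.

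Leaving out 1 library gave 11 to 18 head-only and 22 to 35 trunk-only regions, counts that can hardly fall because the all-against-none rule is looser with fewer libraries. It gave 79 to 284 head calls, 93 to 456 trunk calls, 0 to 261 interactions, and 49 to 79 head and 57 to 91 trunk windows. Similarity differences were 0.0647 to 0.0995 within and 0.0046 to 0.0204 across cell types. Head calls kept within 1.5 times of 281 only without trunk osteoblast replicate 3 or trunk chondrocyte replicate 3, and trunk calls were 456 without trunk chondrocyte replicate 3. Under the alternatives, named regions and windows called by limma kept the call in 750 fits and lost it in 148, and those not called stayed so in 104 and gained a call in 11. These counts include fits without spread in any group, whose p cannot be read. Head-only and trunk-only regions scored as held or not are of this kind. None reversed. Regions of all 12 libraries have no value when scored as held or not, and some named regions have none with 4000 summits.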
